A study of Homo sapiens with 12 samples.

Results

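The deposited table of 58302 genes was read for the 7 genes of chromosome 12 that encode the hair keratins KRT81, KRT82, KRT83, KRT84, KRT85 and KRT86 and their neighbour KRT80, and all 7 were found by gene symbol. They had been picked with their values across all 12 libraries in view, so their levels are given as a description with no test. The libraries were made from total RNA of 3 established prostate cell lines with 4 libraries each. BPH-1 is a benign prostate epithelial line, and DU145 and PC3 are prostate cancer lines that were first grown from metastases. All 3 lines were labelled as prostate and as WT in genotype, all were grown in the same medium with fetal bovine serum, and no treatment or time point was named. Each condition was therefore 1 or 2 lines, and a difference between benign and malignant cells cannot be told apart from a difference between these lines. The labels number the libraries of a line from 1 to 4 and do not say whether they came from separate cultures, so the spread between them may be technical.

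Keratins form the intermediate filaments of epithelial cells, and each filament is built from pairs of 1 type I (acidic) and 1 type II (basic to neutral) chain. The type II genes lie together on chromosome 12 and most type I genes on chromosome 17. Hair, or hard, keratins are made in the cortex and cuticle of the hair shaft and in nails, where disulfide bonds with keratin-associated proteins harden the fibre. KRT81, KRT83 and KRT86 are the closely related type II keratins of the hair cortex, and variants in them are a known cause of the beaded hair disorder monilethrix. KRT85 is made in the hair matrix and early cortex and cuticle, KRT82 in the hair cuticle, and KRT84 in the filiform papillae of the tongue. KRT80 lies at the edge of the hair keratin genes but is an epithelial keratin found in many epithelia, often near desmosomes.

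The libraries held between 12950660 and 16309557 reads, as worked out from the steps between the deposited values. The epithelial markers EPCAM, CDH1, KRT8 and KRT18 were all detected in each line, with a summed level of 129 to 168 FPKM in BPH-1, 68.02 to 132 FPKM in DU145 and 56.2 to 74.7 FPKM in PC3. Most of the sum in the cancer lines was KRT8 and KRT18. EPCAM, an epithelial adhesion protein, held 57.7 to 63.2 FPKM in BPH-1, 0.167 to 0.573 in DU145 and 6.92 to 11.1 in PC3, and CDH1, E-cadherin, 16.3 to 44.6, 0.0851 to 0.297 and 0.427 to 1.415 FPKM. Both fell against BPH-1, with differences of -5.50 and -4.55 in DU145 (adjusted p = 2.3e-08 and 8.86e-07) and -2.63 and -3.98 in PC3 (adjusted p = 3.26e-07 and 2.81e-06) on the log2(FPKM + 1) scale by limma. FPKM is the number of fragments per kilobase of exon, scaled to the size of the library, and a gene is called detected here above 3 reads in a library. The prostate luminal markers KLK2 and KLK3 stayed at or below 3 reads in every library, so the tissue label could not be checked with them. Of 6 hair shaft markers, KRT31, KRT35 and KRT85 were also at or below 3 reads in all 12 libraries, and KRT33B held at most 7 reads. TCHH held 238 to 325 reads in BPH-1, 89 to 156 in DU145 and at most 4 in PC3, and KRT34 26 to 238, 23 to 69 and at most 4. The 6 markers together summed to 3.39 to 11.4 FPKM in BPH-1, 2.63 to 3.58 in DU145 and 0 to 0.241 in PC3, the line with the highest KRT81. DU145 replicates 1 and 2 stood apart from the other DU145 libraries. They held 275 and 256 reads of PTPRC, the leukocyte antigen CD45, and 326 and 365 reads of LYZ, lysozyme, where replicates 3 and 4 held 0 of each. The 4 BPH-1 libraries held 225 to 295 reads of PTPRC and 308 to 400 of LYZ, and the PC3 libraries 0 of PTPRC and 1 to 6 of LYZ. In all, 13 genes had at least 50 reads in both DU145 replicates 1 and 2 and at most 3 in replicates 3 and 4. For 3 genes the reverse held. Of the 13, 8 also had at least 50 reads in every BPH-1 library and at most 3 in every PC3 library. None of the 7 keratins was among the 13. BPH-1 replicates 2 and 4 also differed from replicates 1 and 3. Replicates 2 and 4 held 356 and 388 reads of KRT4 and 1258 and 1174 of KRT13, both keratins of wet-surfaced stratified epithelia, where replicates 1 and 3 held 8 and 13 of KRT4 and 196 and 152 of KRT13. The part of either pair of libraries in the results was not tested. Where a call was lost without either pair this is said below, and values of several genes are given per pair.

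Coding sequence shows how alike KRT81, KRT86 and KRT83 are and where reads of one could be told from another. One GENCODE 29 transcript per gene on GRCh38 was read from the transcript sequences, and the whole coding sequences were aligned. The longest run of identical coding bases that KRT81 shared with KRT86 was 605 bases, with KRT83 95 bases, with KRT85 98 bases and with KRT80 28 bases. The ends of the coding sequences, which encode the tail of the protein, were less alike. In the alignment, 41 of the last 120 coding bases of KRT86 and 22 of those of KRT83 had no identical KRT81 partner. These last 120 coding bases are shown for each gene. They lie at chr12:52286258-52286377 on the minus strand for KRT81, at chr12:52308463-52308582 on the plus strand for KRT86 and at chr12:52314634-52314753 on the minus strand for KRT83, each within 1 exon. Bases in capitals had no identical KRT81 partner in the alignment of whole coding sequences. A partner can lie outside the KRT81 stretch shown, so the lines below are not aligned to each other.
KRT81: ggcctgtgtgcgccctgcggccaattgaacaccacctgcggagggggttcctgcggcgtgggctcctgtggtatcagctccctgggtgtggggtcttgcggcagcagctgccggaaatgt
KRT86: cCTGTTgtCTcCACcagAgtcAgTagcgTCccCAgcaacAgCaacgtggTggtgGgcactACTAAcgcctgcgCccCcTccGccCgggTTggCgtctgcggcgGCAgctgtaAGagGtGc
KRT83: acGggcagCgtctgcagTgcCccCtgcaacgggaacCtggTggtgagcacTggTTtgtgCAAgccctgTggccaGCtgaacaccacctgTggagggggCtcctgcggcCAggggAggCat

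Over whole coding sequences, identity between members ran from 61.4% for KRT80 with KRT82 to 93.9% for KRT81 with KRT86. KRT83 was 93.3% identical to KRT81 and 91.4% to KRT86, and KRT85 was 86.3% identical to KRT81. KRT82 and KRT84 were 69.9% to 74.0% identical to the 4 members other than KRT80 and to each other. All 7 transcripts had 9 exons, and their coding sequences were between 1356 bases in KRT80 and 1800 bases in KRT84.

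**Figure D1:**
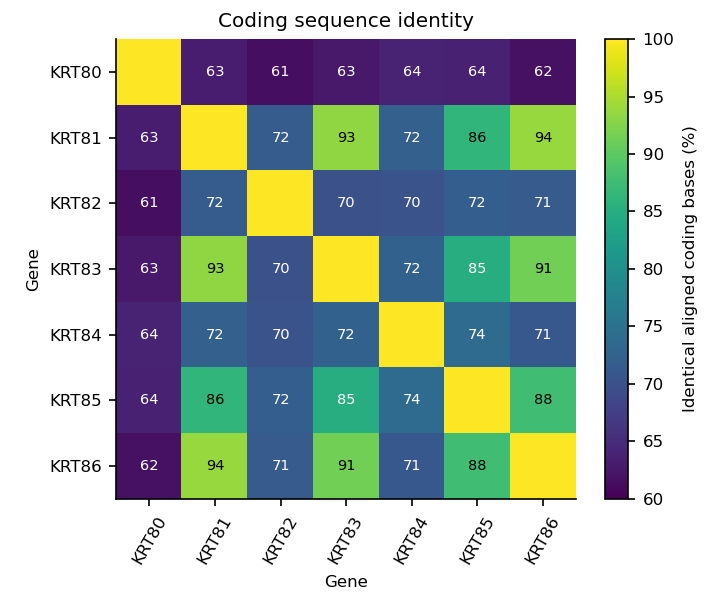
Identity of the aligned coding bases, in percent, for each pair of the 7 genes, with the genes on both axes. KRT81, KRT83 and KRT86 form the brightest block at 91.4% to 93.9%, KRT85 stands next to them, and KRT80 is the least like the others at 61.4% to 63.8%.

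Reads were deposited per gene, so shared sequence bears on the levels of KRT81 and KRT86. Of the distinct 100-base windows in KRT81 transcripts, 28.8% also occurred in KRT86, and of those in KRT86 23.5% occurred in KRT81. For KRT83 0 of 1776 such windows occurred in another member. With 50-base windows the shares were 37.6% for KRT81 in KRT86 and 30.8% for KRT86 in KRT81. Of the 50-base windows of KRT83, 12.8% occurred in another member or in the pseudogene KRT87P. Read length and the authors' handling of reads that fit more than one gene were not given in the sources used here. The split of reads between KRT81 and KRT86 is therefore uncertain, and some reads of KRT83 may also be shared. Summed, the reads of KRT81, KRT83 and KRT86 were 0.0860% to 0.151% of a library in PC3, 0.00143% to 0.00373% in DU145 and 0.000167% to 0.000930% in BPH-1, and the lines did not overlap. KRT86 (chr12:52249300-52309163, plus strand) spans KRT81 (chr12:52285913-52291534, minus strand) and the pseudogene KRT87P on the opposite strand, without a shared exon base. Its coding exons begin beyond KRT81. It shared 48 and 32 exon bases with the antisense RNAs AC021066.1 and AC121757.1, and KRT84 shared 124 with AC078865.1. Whether counting used strand was not given, so reads of these bases cannot be assigned to a strand.

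KRT81 (ENSG00000205426) was the member with the widest range between lines. Its levels in PC3 replicates 1 to 4 were 382, 348, 316 and 556 FPKM, on 11051 to 18161 reads. In DU145 they were 7.68, 2.75, 6.73 and 4.19 FPKM, and in BPH-1 1.21, 3.14, 0.613 and 0.432 FPKM. Every PC3 library was above every library of the other 2 lines, while DU145 replicate 2 was below BPH-1 replicate 2, so DU145 and BPH-1 overlapped. Without either of these libraries they did not. As these are bulk samples, fewer cells with the transcript and less of it per cell cannot be told apart. The means were 400 ± 107 FPKM in PC3, 5.34 ± 2.27 in DU145 and 1.35 ± 1.24 in BPH-1 (SD, n = 4 each). The mean in PC3 was 297 times that of BPH-1 and 75.0 times that of DU145, and the lowest PC3 library was 41.1 times the highest DU145 library. Without BPH-1 replicate 2 the mean of BPH-1 was 0.751 FPKM, and PC3 was at 533 times and DU145 at 7.11 times that level, in place of 297 and 3.96 times. KRT81 had rank 30 of 19817 protein-coding genes in PC3 by mean FPKM, rank 4661 in DU145 and rank 9702 in BPH-1.

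KRT86 (ENSG00000170442) followed the same order of lines with a narrower range. Its 4 PC3 libraries held 25.4, 23.4, 22.2 and 37.9 FPKM, the DU145 libraries 5.48, 2.30, 4.49 and 3.43 FPKM, and the BPH-1 libraries 0.275, 0.371, 0.0684 and 0.204 FPKM. No 2 lines overlapped, with 871 to 1388 reads in PC3, 106 to 251 in DU145 and 3 to 16 in BPH-1. The means were 27.2 ± 7.25 FPKM in PC3, 3.93 ± 1.37 in DU145 and 0.230 ± 0.127 in BPH-1 (SD, n = 4 each). PC3 was at 6.94 times DU145 and 119 times BPH-1, and DU145 at 17.1 times BPH-1.

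KRT83 (ENSG00000170523, chr12:52314301-52321398, minus strand) was near the detection limit and did not share the high level of its relatives in PC3. It held 21, 18, 13 and 12 reads in PC3, 40, 14, 22 and 14 in DU145, and 0, 5, 2 and 0 in BPH-1. In FPKM this was 0.494 to 0.865 in PC3, 0.458 to 1.32 in DU145 and 0 to 0.175 in BPH-1. PC3 and DU145 overlapped and both lay above BPH-1. The mean of BPH-1 was below the worth of 3 reads per library, and the means of PC3 and DU145 were 6.18 and 7.46 times that floor. The lowest PC3 library was 2.83 times the highest BPH-1 library, and the lowest DU145 library 2.62 times.

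**Figure D2:**
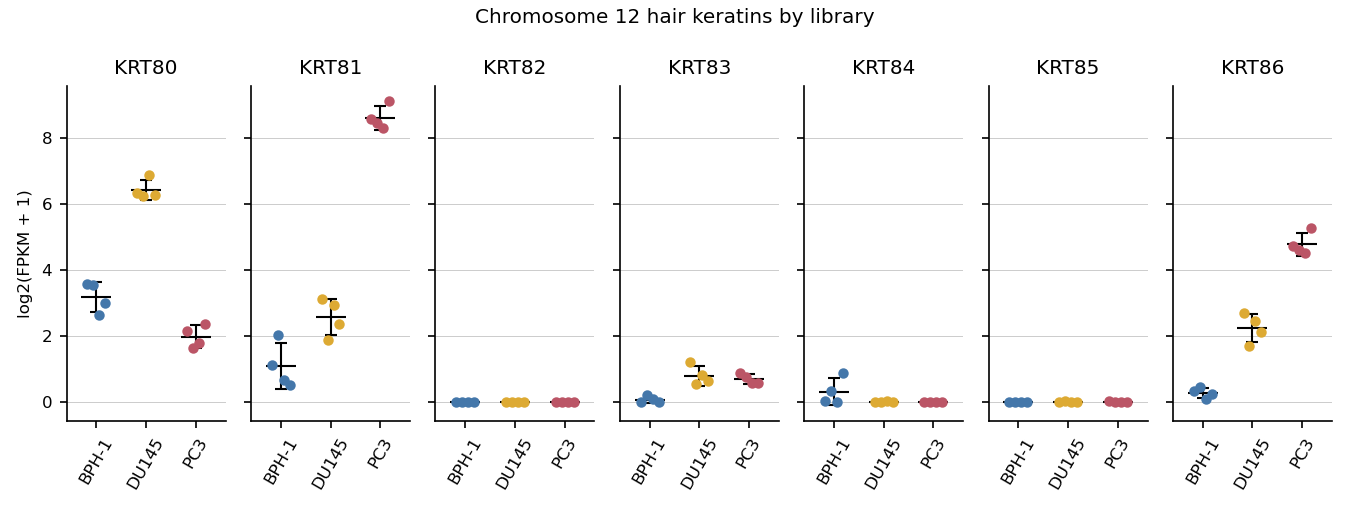
Level of each of the 7 genes as log2(FPKM + 1), with 1 point per library, 4 libraries per line, and bars for the mean and SD. KRT81 and KRT86 are highest in PC3, KRT80 is highest in DU145 and lowest in PC3, and KRT82, KRT84 and KRT85 lie at or near 0 in DU145 and PC3.

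The other hair keratins were barely detected. KRT85 (ENSG00000135443, chr12:52360006-52367481) had 0 reads in BPH-1, 0, 2, 1 and 0 in DU145 and 1, 0, 0 and 0 in PC3. KRT82 (ENSG00000161850, chr12:52393931-52406355) had 0 reads in all 12 libraries, which allows up to 0.0691 to 0.0870 FPKM at 3 reads per library. KRT84 (ENSG00000161849, chr12:52377812-52385652) was seen in BPH-1, with 1, 9, 0 and 28 reads, while DU145 held 0, 0, 1 and 0 and PC3 0 in all 4 libraries. BPH-1 overlapped both cancer lines for KRT84, since its replicate 3 was also at 0, and replicate 4 alone held 28 of its 38 reads. The mean of replicates 2 and 4, which stood apart, was 0.570 FPKM, against 0.0155 FPKM in replicates 1 and 3. All 3 genes lie on the minus strand.

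KRT80 (ENSG00000167767, chr12:52168996-52192000, minus strand), the epithelial keratin of the set, had its own order of lines. Its levels were 80.6, 74.4, 116 and 76.9 FPKM in DU145, 11.1, 10.7, 5.31 and 6.98 FPKM in BPH-1, and 3.52, 2.13, 2.45 and 4.18 FPKM in PC3. The lines did not overlap, with DU145 at the top and PC3 at the bottom, although the gap between the lowest BPH-1 and the highest PC3 library was 1.27-fold. The means were 87.1 ± 19.7 FPKM in DU145, 8.504 ± 2.81 in BPH-1 and 3.07 ± 0.947 in PC3 (SD, n = 4 each). DU145 was at 10.2 times BPH-1 and 28.4 times PC3, and BPH-1 at 2.77 times PC3. It had rank 209 of 19817 protein-coding genes in DU145, 3486 in BPH-1 and 6204 in PC3. KRT80 lies inside the span of the long noncoding RNA LINC00592 on the opposite strand, without a shared exon base.

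Levels depend on the gene length used. The deposited FPKM of KRT80 rest on a summed length of its distinct exons of 9243 bases, where overlapping exons merge to 4350 bases. With merged exons the mean level of KRT80 was 185 ± 41.9 FPKM in DU145, and that of KRT81 in PC3 was 524 ± 140 FPKM (SD, n = 4 each). Length cancels in the ratio of a gene between lines.

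Within a line, the order of the members was as follows, by deposited FPKM. In BPH-1 every KRT80 library was above every KRT81 library, and KRT81 was above KRT86 in each range, while KRT86, KRT84 and KRT83 overlapped, and KRT84 also reached into the range of KRT81. In DU145 KRT80 was above all, the ranges of KRT81 and KRT86 overlapped, and KRT83 lay below both. In PC3 the order was KRT81, KRT86, KRT80 and KRT83, and no 2 of these 4 ranges overlapped.

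The counts over all genes give the scale of difference between these lines. KRT80, KRT81, KRT83 and KRT86 passed the filter on low reads in each comparison, 4 of 7 members, and KRT82, KRT84 and KRT85 did not. In PC3 against BPH-1, limma on log2(FPKM + 1) called 67.6% of 16408 genes with the adjusted p (Benjamini-Hochberg) below 0.05, 27.1% higher and 40.4% lower, and of the members 3 higher and 1 lower. In DU145 against BPH-1 it called 62.7% of 17016 genes, 30.3% higher and 32.4% lower, and 4 members higher. In PC3 against DU145 it called 48.3% of 16420 genes, 20.0% higher and 28.3% lower, and 2 members higher and 1 lower. Libraries of the lines compared did not overlap for 64.4%, 59.5% and 46.5% of tested genes, and for 4, 3 and 3 members. The members were chosen on these same contrasts, so nothing is read from their counts. The first 2 comparisons share the BPH-1 libraries, and each shares a cancer line with the third.

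On the log2(FPKM + 1) scale, KRT81 differed by 7.51 between PC3 and BPH-1, by 6.03 between PC3 and DU145 and by 1.49 between DU145 and BPH-1. For KRT86 these differences were 4.50, 2.53 and 1.96. For KRT80 they were -1.20, -4.44 and 3.24, and for KRT83 0.63, -0.10 and 0.72. The median difference over all genes tested was -0.13 for PC3 against BPH-1, -0.05 for PC3 against DU145 and -0.03 for DU145 against BPH-1. Without DU145 replicates 1 and 2, the difference of DU145 from BPH-1 was 3.38 for KRT80, 1.56 for KRT81, 0.65 for KRT83 and 2.01 for KRT86. The mean of the 2 remaining DU145 libraries was 96.6 FPKM for KRT80, against 77.5 FPKM in replicates 1 and 2, 5.46 against 5.21 FPKM for KRT81 and 3.96 against 3.89 FPKM for KRT86.

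KRT81 and KRT86 kept a narrow range of proportion within PC3. The FPKM of KRT81 was 14.2 to 15.01 times that of KRT86 in the 4 PC3 libraries, 1.19 to 1.497 times in DU145 and 2.12 to 8.96 times in BPH-1, where KRT86 rested on at most 16 reads. The PC3 and DU145 ranges did not overlap. In reads, KRT86 had 7.46% to 7.88% of the number of KRT81 in PC3 and 74.8% to 93.8% in DU145. The 4 PC3 libraries stood in the same order for both genes, with replicate 4 highest and replicate 3 lowest. In DU145 the order was replicates 1, 3, 4 and 2 for KRT81, KRT86 and KRT83 alike. Neither order was particular to these genes. Of genes with at least 50 reads in every library of the line, 8.05% of 10655 had the PC3 order of KRT81 and 8.20% of 11021 its DU145 order, among them NOTCH1 in both lines. Over all genes tested, the deviation of PC3 replicate 4 from its line mean correlated with those of DU145 replicates 1 and 3 (r = 0.63 and 0.71, across genes). For KRT83 the level relative to KRT81 was 0.113 to 0.172 in DU145 and 0.000889 to 0.00226 in PC3.

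KRT87P, an unprocessed pseudogene inside the span of KRT86 (chr12:52250466-52258867, minus strand), was read in PC3. It held 476, 358, 435 and 694 reads in PC3, 4, 0, 4 and 3 in DU145, and 0 in each BPH-1 library. Its level in PC3 was 16.3 ± 5.27 FPKM (SD, n = 4), and every PC3 library stood above the other lines. In limma it was higher in PC3 than in BPH-1 by 4.07 (SE 0.19, adjusted p = 1.97e-07) and than in DU145 by 3.96 (SE 0.21, adjusted p = 1.19e-06) on the log2(FPKM + 1) scale. Its reads were 2.97% to 3.94% of the number of KRT81 in PC3. Of its 100-base windows 1.01% occurred in KRT81 and 1.55% in KRT86, and of its 50-base windows 9.83% and 9.77%. Some of its reads may therefore be shared with these genes. It was the single gene of 9 listed keratin pseudogenes and antisense RNAs in the table that passed the filter in PC3 comparisons, and 0 of the 9 passed in DU145 against BPH-1. None was therefore tested there.

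**Figure D3:**
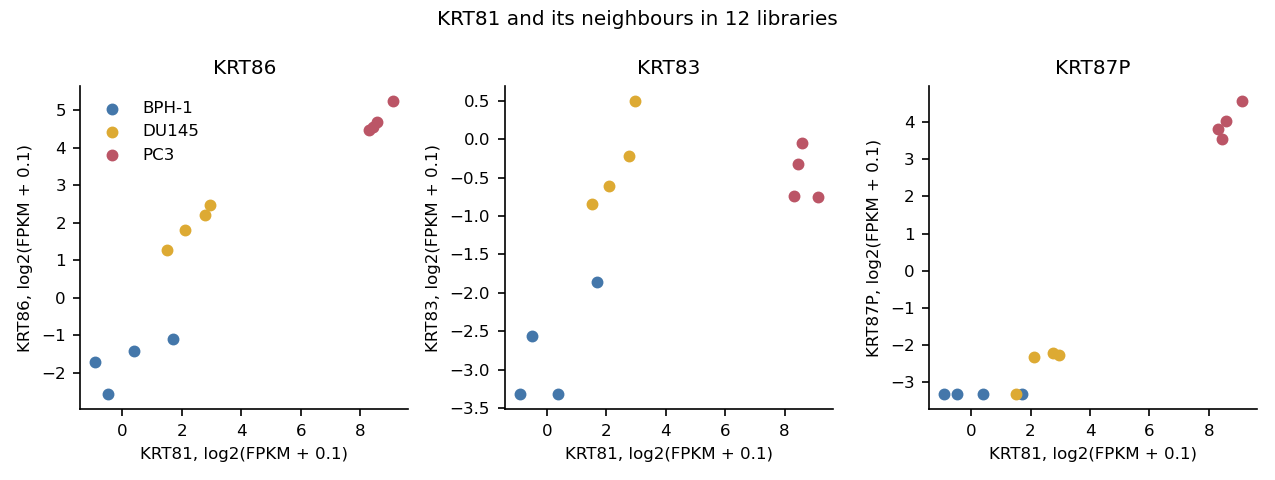
Level of KRT86, KRT83 and the pseudogene KRT87P against KRT81 in 12 libraries, all as log2(FPKM + 0.1), with lines by colour. KRT86 and KRT87P are highest in the PC3 libraries, where KRT81 is highest, while KRT83 in PC3 lies within the range of DU145.

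The other keratin genes of the cluster had their own orders of lines. KRT7, a simple epithelial keratin next to KRT86, held 0.873 to 1.397 FPKM in BPH-1, 158 to 260 FPKM in DU145 and 46.4 to 66.4 FPKM in PC3. It was higher than in BPH-1 by 6.69 in DU145 (SE 0.19, adjusted p = 2.48e-08) and by 4.87 in PC3 (SE 0.15, adjusted p = 2.02e-08), and fell by 1.82 from DU145 to PC3 (SE 0.20, adjusted p = 7.38e-05, limma throughout). The span of KRT7 overlaps that of KRT86 by 2887 bases on the same strand, without a shared exon base. The basal keratins KRT5 and KRT6A fell in both cancer lines, KRT5 from 147 FPKM in BPH-1 to 0.216 in DU145 and 0.0118 in PC3. In DU145 the reads of KRT5 lay in the libraries that stood apart, with 45 and 66 in replicates 1 and 2 and 3 and 0 in replicates 3 and 4, whose mean was 0.0120 FPKM. KRT6A likewise held 0.155 FPKM in DU145 replicates 1 and 2 and 0 in replicates 3 and 4. KRT6B, close in sequence to KRT6A, fell by 2.18 in PC3 and by 2.19 in DU145 (adjusted p = 0.00461 and 0.00413, limma), from 9.10 FPKM in BPH-1 replicates 2 and 4 and 1.34 in replicates 1 and 3. KRT75, a keratin of the companion layer around the hair, differed from BPH-1 by -1.58 in DU145 (SE 0.17, adjusted p = 2.98e-05) and by -0.80 in PC3 (SE 0.19, adjusted p = 0.00429, limma).

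Among the 20 other keratin genes of the cluster, 8 passed the filter in PC3 against BPH-1, of which 1 rose (KRT7) and 5 fell, with a median of -0.87. In DU145 against BPH-1, 9 passed, 2 rose (KRT7 and KRT18) and 5 fell, with a median of -1.25. The call of KRT18 was lost without BPH-1 replicates 2 and 4 (0.78, adjusted p = 0.0733, limma). In PC3 against DU145, 4 passed, 1 rose (KRT75) and 2 fell (KRT7 and KRT18), with a median of -0.45. KRT8, the usual partner of KRT18 in simple epithelia, was not called in any of the 3 comparisons (adjusted p = 0.191, 0.0801 and 0.489 by limma).

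**Figure D4:**
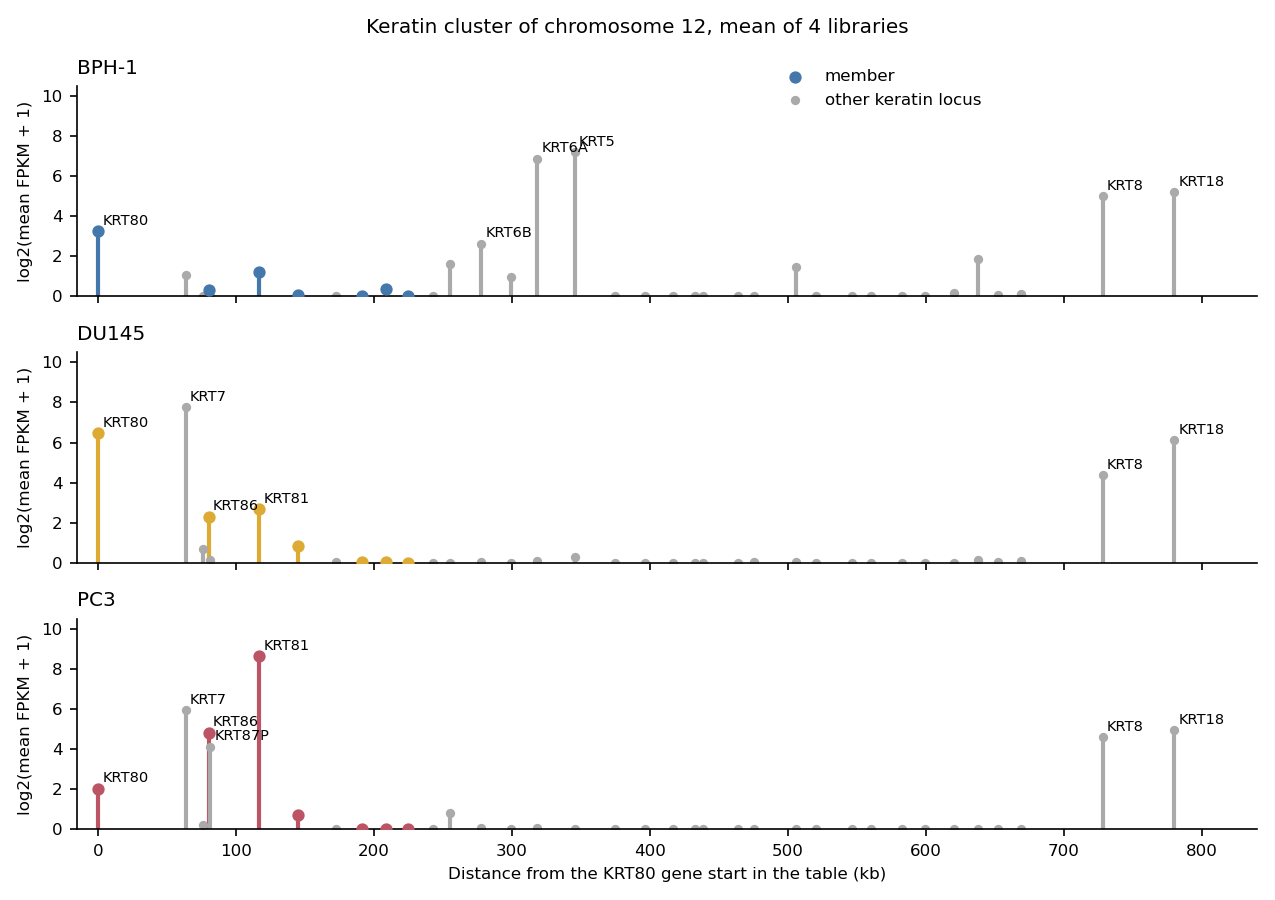
Mean level of the keratin loci as log2(mean FPKM + 1) against distance in kb from the KRT80 gene start, for each line, with the 7 genes in colour and other loci in grey. The highest loci are KRT5 and KRT6A in BPH-1, KRT7, KRT80 and KRT18 in DU145, and KRT81 and KRT7 in PC3, with KRT18, KRT86, KRT8 and KRT87P next. KRT8 and KRT18, at the far end, are at 19.6 to 69.0 FPKM in every line, while KRT82, KRT84 and KRT85 are near 0 in each.

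As a share of all type II keratin FPKM, the 7 members made up 2.19% to 4.56% in BPH-1, 25.5% to 33.0% in DU145 and 81.2% to 86.1% in PC3. In PC3 the share came from KRT81 at 75.6% to 80.0%, and in DU145 from KRT80 at 21.7% to 29.9%. KRT7 held 61.2% to 69.8% in DU145 and 9.33% to 13.9% in PC3, while KRT5 alone held 37.4% to 55.6% in BPH-1. Of 55 protein-coding keratin genes, KRT81 had the highest mean FPKM in PC3, ahead of the type I keratin KRT19 at 232 FPKM, and KRT80 the second highest in DU145.

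**Figure D5:**
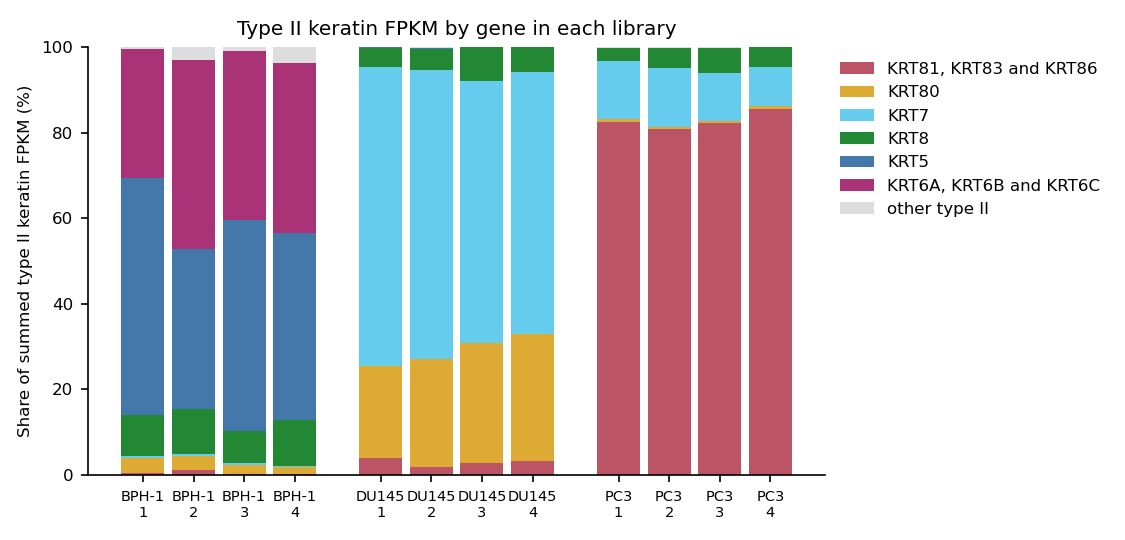
Share of the summed FPKM of type II keratins, in percent, that each gene or group holds in each of the 12 libraries, named by line and replicate. KRT81, KRT83 and KRT86 together hold 80.8% to 85.5% in PC3, KRT80 holds 21.7% to 29.9% in DU145, and KRT5 and the KRT6 genes hold most in BPH-1.

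The type I hair keratins, the partners of these chains in the hair shaft, were low in all lines. Of 11 genes, 2 passed the filter in PC3 against BPH-1 and against DU145, where KRT37 rose and KRT34 fell, and 1 passed in DU145 against BPH-1, where limma called 0, also at an unadjusted p under 0.05, and voom 0. KRT37, a type I keratin of body hair, held 12, 45, 126 and 42 reads in PC3, 0 in each BPH-1 library, and 0, 0, 0 and 1 in DU145. It was higher in PC3 by 1.73 than in BPH-1 (SE 0.36, adjusted p = 0.00191) and by 1.71 than in DU145 (SE 0.36, adjusted p = 0.00395, limma). KRT34, a cortex keratin, held 26, 238, 31 and 71 reads in BPH-1, 54, 39, 69 and 23 in DU145, and 4, 0, 0 and 0 in PC3. Its difference was -1.75 for PC3 against BPH-1 (SE 0.44, adjusted p = 0.00570) and -1.34 for PC3 against DU145 (SE 0.17, adjusted p = 0.000189, limma). DU145 and BPH-1 overlapped for KRT34 (difference -0.41, SE 0.46, adjusted p = 0.457, limma). KRT32, a cuticle keratin, held 8 to 12 reads in PC3 and, apart from 6 reads in BPH-1 replicate 2, 0 elsewhere.

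The summed FPKM of all 11 type I hair keratins was 1.39 to 7.20 in PC3, 1.33 to 2.81 in DU145 and 1.06 to 10.2 in BPH-1. The sum of KRT81, KRT83 and KRT86 was 47.0 to 294 times as large in PC3, 3.95 to 6.66 times in DU145 and 0.227 to 1.39 times in BPH-1. A list of 16 other type I keratins held those of other epithelia and of the inner root sheath of hair. Among these, KRT19 rose in PC3 by 2.84 against BPH-1 (SE 0.25, adjusted p = 9.48e-06) and by 3.30 against DU145 (SE 0.25, adjusted p = 7.74e-06, limma). KRT14 and KRT17, basal and stress-related keratins, fell in both cancer lines, with differences from BPH-1 of -7.64 and -7.67 in PC3 and -7.42 and -7.35 in DU145. KRT14 held 0.358 FPKM in DU145 replicates 1 and 2 and 0.0111 in replicates 3 and 4, and KRT17 0.466 and 0.0979. KRT16, a keratin of activated epidermis, fell by 2.77 in PC3 and by 2.40 in DU145, and KRT13 by 2.65 in each (adjusted p of at most 0.00183, limma). The BPH-1 mean was 12.5 FPKM in replicates 2 and 4 and 3.56 in replicates 1 and 3 for KRT16, and 13.1 and 1.88 FPKM for KRT13. From DU145 to PC3, KRT15, a basal keratin, rose by 1.05 (adjusted p = 0.000468) and KRT10, a keratin of differentiated epidermis, fell by 0.86 (adjusted p = 0.00715, limma). In total 1 of these rose and 6 fell in PC3 against BPH-1, 1 rose and 7 fell in DU145 against BPH-1, and 2 rose and 2 fell in PC3 against DU145.

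The other hair shaft genes were called in both directions against BPH-1. Of 20 genes, 8 passed the filter in PC3 against BPH-1, 1 rose and 6 fell, with a median of -1.28. In DU145 against BPH-1, 7 passed, 1 rose and 4 fell, with a median of -0.71. Over all genes called, 59.8% were lower in PC3 and 51.6% lower in DU145. S100A3, a calcium-binding protein of the hair cuticle, rose by 1.48 in PC3 (SE 0.13, adjusted p = 7.53e-06) and by 1.44 in DU145 (SE 0.18, adjusted p = 7.42e-05, limma). Its levels were 7.77 to 9.58 FPKM in PC3, 6.71 to 10.2 in DU145 and 1.90 to 2.85 in BPH-1, so both cancer lines stood above BPH-1. TCHH, which encodes trichohyalin of the inner root sheath, held 2.19 to 2.95 FPKM in BPH-1, 0.809 to 1.42 in DU145 and at most 4 reads in PC3, and fell in PC3 by 1.78 (SE 0.09, adjusted p = 2.47e-07, limma). The adhesion genes CDH3 and JUP fell, with differences of -3.68 and -1.91 in PC3 and -3.001 and -2.67 in DU145 (adjusted p of at most 7.91e-05 in each, limma). DSC2, a desmosomal cadherin, fell in DU145 by 2.21 (SE 0.29, adjusted p = 0.000123, limma). From DU145 to PC3, the keratin-associated protein gene KRTAP2-3, one of a family of close copies, fell by 1.69 (SE 0.29, adjusted p = 0.00107), TCHH by 1.07 (SE 0.10, adjusted p = 2.45e-05) and the lipase gene LIPH by 0.57 (SE 0.16, adjusted p = 0.0139, limma). The call of LIPH was lost in 1 fit of all 3 lines (adjusted p = 0.131) and without DU145 replicates 1 and 2 (adjusted p = 0.0622, limma). Against DU145, 7 genes passed, 2 rose and 4 fell in PC3, and without DU145 replicates 1 and 2 the calls were 1 up and 2 down.

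Among 26 regulators of hair differentiation, 25 passed the filter in PC3 against BPH-1, 4 rose and 14 fell, with a median of -0.51. In DU145 against BPH-1 all 26 passed, 5 rose and 16 fell, with a median of -0.57, and in PC3 against DU145 20 passed, 8 rose and 8 fell, with a median of 0.03. SHH, a secreted signal of hair follicle growth, held 9.83 to 11.5 FPKM in PC3, 0.280 to 0.604 in DU145 and 0 to 0.150 in BPH-1. It was higher in PC3 by 3.45 than in BPH-1 (SE 0.10, adjusted p = 2.15e-08) and by 3.05 than in DU145 (SE 0.14, adjusted p = 5.46e-07, limma). TP63, a master factor of basal epithelium, fell in both cancer lines, with differences of -3.79 in PC3 and -3.76 in DU145, and the transcription factor OVOL1 with -2.21 in each. WNT10A, a secreted Wnt signal, held 4.41 to 11.9 FPKM in BPH-1, 0.373 to 0.542 in DU145 and 0.117 to 0.164 in PC3. It fell by 3.09 in PC3 (SE 0.25, adjusted p = 5.09e-06) and by 2.73 in DU145 (SE 0.26, adjusted p = 1.47e-05, limma). TRPS1, a transcription factor whose loss causes sparse hair, fell in DU145 by 1.93 (SE 0.11, adjusted p = 8.31e-07, limma). It was higher in PC3 than in DU145 by 0.91 (SE 0.15, adjusted p = 0.0011, limma). Its levels were 2.34 to 3.39 FPKM in BPH-1, 0 to 0.0186 in DU145 and 0.362 to 1.34 in PC3, so both cancer lines stood below BPH-1. From DU145 to PC3, WNT10B fell by 0.82 (SE 0.21, adjusted p = 0.0103) and the homeobox gene MSX1 by 0.80 (SE 0.24, adjusted p = 0.0218, limma). The call of MSX1 was lost with a replicate block, without DU145 replicate 1, PC3 replicate 2 or PC3 replicate 3, and without DU145 replicates 1 and 2 (adjusted p = 0.0563, 0.0634, 0.0528, 0.0608 and 0.0572, limma).

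HOXC13 and LEF1, transcription factors that act on hair keratin promoters, were singled out after their values were seen. HOXC13 held 4.67 to 6.25 FPKM in PC3, 2.48 to 3.91 in DU145 and 2.18 to 4.27 in BPH-1. Every PC3 library was above the other lines, and HOXC13 rose in PC3 by 0.65 against BPH-1 (SE 0.17, adjusted p = 0.00781) and by 0.48 against DU145 (SE 0.17, adjusted p = 0.0392, limma). The call against BPH-1 was lost when every library was set to 1 common FPKM total (0.44, adjusted p = 0.0505). The call against DU145 was lost without any 1 of DU145 replicates 1, 2 and 4 or PC3 replicates 1 to 4 (adjusted p = 0.0576, 0.0700, 0.0579, 0.0582, 0.0601, 0.0906 and 0.0954), without DU145 replicates 1 and 2 together (0.37, adjusted p = 0.161), with a replicate block (adjusted p = 0.0835) and with voom (adjusted p = 0.0615). DU145 and BPH-1 overlapped for HOXC13 (difference 0.17, SE 0.20, adjusted p = 0.487, limma). LEF1 held 94 to 196 reads in BPH-1, 0 to 7 in DU145 and 0 to 1 in PC3, and fell in both, with differences of -0.67 in PC3 and -0.65 in DU145 (adjusted p = 7.6e-05 and 9.92e-05, limma). FOXN1, the factor lost in nude mice, also singled out later, held 262 and 484 reads in BPH-1 replicates 2 and 4, 97 and 42 in replicates 1 and 3, and at most 3 in either cancer line.

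The genes whose profile over the 12 libraries was most like that of a member were found by the root mean square difference of centred log2(FPKM + 1). For KRT80 the nearest was TUFT1, which encodes tuftelin, at 0.174, with means of 107 FPKM in DU145, 12.02 in BPH-1 and 4.12 in PC3. SFTA1P at 0.361 and B3GALT4 at 0.401 came next. For KRT81 they were TFF1, ANPEP and PRAC1 at 0.793, 0.806 and 0.878. TFF1 was listed at 0 in BPH-1 and DU145 and at 140 FPKM in PC3. For KRT86 they were SLCO4A1, RCN3 and RF02138 at 0.294, 0.325 and 0.358, and for KRT83, whose own range is small, RPL21P93, GGA1 and PARP3 at 0.138, 0.144 and 0.148. These names depend on the pseudocount. With 0.1 in place of 1, TUFT1 alone of the 12 remained, and KRT87P, MSMP and BX640514.2 were the nearest to KRT81. The likeness is mostly a matter of 3 line means, since libraries of a line share their line.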

How the data were processed

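RNA-sequencing libraries (12) of established cell lines were analysed. The authors deposited 1 table of normalised values for 58302 genes, and the values have the form of FPKM. Positions are on GRCh38 and equalled the GENCODE 29 locus for 56610 genes. Per the labels, the submitters' processing notes name CASAVA 1.8, HISAT2 2.1.0 and edgeR without their roles. The counting program, annotation, use of strand and filters were not given in the sources used here. The kit was NEBNext Ultra RNA, and read length was not known. Each column was assigned by its name, and 0 columns were left over.

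Depth was worked out from the steps between low FPKM values, with gene length as the sum of distinct exons. In a library 93.2% to 94.2% of low values of protein-coding genes then fell within 0.05 of a whole read. Depth was 12950660 to 16309557 reads, 263 genes had no length, and limits from 3 reads cover counting error only. Summed FPKM was 246960 ± 2986 in BPH-1, 293757 ± 5858 in DU145 and 298496 ± 5975 in PC3 (SD, n = 4 each), and values were compared as deposited.

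Pairs of lines were compared with limma 3.58.1 (R 4.3.3, intensity trend) on log2(FPKM + 1), two-sided, with Benjamini-Hochberg adjustment over all genes tested. A gene was tested if 4 or more libraries held the equivalent of 10 reads at median depth and all libraries together 15 reads. The fit was tested on simulated data. The members and gene lists were chosen with earlier results of these data known. Besides the members, the genes named were up to 4 per list and comparison with the largest called difference, no overlap between lines and at least 50 mean reads in the higher line, the 3 most alike profiles per member with at least 10 mean reads in a line, genes that overlap a member, and markers. KRT18, KRT75, KRT8, KRT32, KRT34 in other comparisons, HOXC13, LEF1 and FOXN1 were named after their values were seen. Marker lists for fibroblasts, endothelium and melanocytes summed to at most 3.98, 2.28 and 0.190 FPKM in a library. The basal prostate list summed to 355 to 504 FPKM in BPH-1, 2.70 to 3.83 in DU145 and 26.8 to 63.2 in PC3. In both cancer lines most of this sum was ITGB4, at 1.94 to 3.56 FPKM in DU145 and 26.8 to 63.2 in PC3. KRT5, KRT14 and TP63 held at most 0.0381, 0.0265 and 0.0234 FPKM in a PC3 library. Of the leukocyte list CD3E was at or below 3 reads in all libraries. The alternatives were no filter, FPKM of at least 1 in 4 libraries, a pseudocount of 0.1, a replicate block, 1 fit of 3 lines, 2 rescalings, voom on the recovered reads, leaving out each library and, chosen after the data were seen, leaving out DU145 replicates 1 and 2 or BPH-1 replicates 2 and 4. Sequences came from GENCODE 29 transcripts, and identity from global alignment with Biopython 1.88. KRT88P, KRT121P and KRT124P were not analysed here. Other software was Python 3.11.15, numpy 2.4.6, pandas 2.3.3 and matplotlib 3.10.9.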

Additional observations from a re-analysis of the deposited data

Results flagged for a closer look

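KRT80 in DU145 replicate 3 stood far from the other DU145 libraries at 116 FPKM (16602 reads), where the others held 74.4 to 80.6 FPKM. Among members, KRT84 in DU145 replicate 3 (0.0310 FPKM) and KRT85 in PC3 replicate 1 (0.0212 FPKM) were marked the same way, and each rests on 1 read. KRT7 in PC3 replicate 3 was low at 46.4 FPKM, and CDH3 in BPH-1 replicate 2 was at 74.2 FPKM. The pseudogene KRT87P had 0 reads in DU145 replicate 2, and KRT13 had 0 in DU145 replicate 4. The remaining cases were at 1 to 4 reads in a single library: KRT34 in PC3 replicate 1 at 0.176 FPKM, KRT37 in DU145 replicate 4 at 0.0506 FPKM, KRT6B in DU145 replicate 3 at 0.0568 FPKM, KRT14 in PC3 replicate 4 at 0.0265 FPKM and OVOL1 in DU145 replicate 3 at 0.0501 FPKM. In all 12 such cases were found among 36 genes in 3 lines, and chance alone marks about 5% of groups.

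KRT80 was the member that lay on opposite sides of BPH-1 in the cancer lines. Every DU145 library was above every BPH-1 library, with a mean 78.6 FPKM higher, and every PC3 library was below every BPH-1 library. The difference between the 2 effects was not tested, since this pattern chose the gene.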

How the results depend on the processing

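Of the differences of single members, all but 15 of 259 values under other settings moved by at most 1 pooled SD between libraries. The 259 values include those of KRT82, which held 0 reads in every library and so could not move. Of these 15, 13 came from a pseudocount of 0.1 and 2 were KRT84 without BPH-1 replicates 2 and 4 (-0.02 in PC3 and -0.01 in DU145). KRT83 between PC3 and DU145 changed sign (0.04) without DU145 replicate 1. With KRT81, KRT83 and KRT86 summed as reads, 2 genes or sums did not overlap in PC3 against BPH-1 in place of 4 members, since 3 genes became 1. Leaving out 1 library gave 4 to 5 members without overlap for PC3 against BPH-1, 3 to 4 for DU145 against BPH-1 and 3 throughout for PC3 against DU145. Setting libraries to 1 common FPKM total moved the median of all genes from -0.13 to -0.28 in PC3 against BPH-1 and from -0.03 to -0.16 in DU145 against BPH-1. With no filter, the calls among pseudogenes and antisense RNAs were 2 in each of the 3 comparisons, in place of 1, 0 and 1, and in PC3 against DU145 they were 4 for type I hair keratins and 5 for the other cluster keratins. With FPKM of at least 1 in 4 libraries fewer genes were tested: 0 type I hair keratins were called in PC3 against either line, regulators called were 11 and 13 for PC3 and DU145 against BPH-1 and 7 for PC3 against DU145, and 18 genes over all lists in the last. Leaving out 1 library gave 0 to 1 calls among pseudogenes and antisense RNAs in DU145 against BPH-1 and 1 to 2 in PC3 against DU145. Without DU145 replicates 1 and 2, an alternative chosen after the data were seen, these were 1 and 2, and hair shaft genes called in PC3 against DU145 fell to 3. Without BPH-1 replicates 2 and 4, also chosen afterwards, 1 pseudogene or antisense RNA was called in DU145 against BPH-1 and 10220 and 8673 genes in PC3 and DU145 against BPH-1. With a pseudocount of 0.1, 1 of the 12 most alike genes (TUFT1 for KRT80) remained, and KRT87P became the nearest to KRT81. Of calls for named list genes, in the other settings where the gene was still tested, 1094 held and 19 were lost. The losses were all for HOXC13, LIPH, MSX1 or KRT18, and none reversed. Calls lost because a gene was no longer tested are not counted here. With FPKM of at least 1 in 4 libraries this was so for KRT34, KRT37, LEF1, FOXN1 and KRT6B, among others. In PC3 against DU145 it was also so for KRT75, TCHH and TRPS1. Where both lines held 0 to 3 reads a difference was not detectable at this depth.

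Libraries with the same number did not deviate together in every pair (correlations from -0.14 to 0.11 for PC3 with BPH-1, -0.09 to -0.07 for DU145 with BPH-1 and -0.67 to 0.52 for PC3 with DU145), so the numbers were taken as labels. With a replicate block the calls were 10733, 10131 and 6747 genes in place of 11085, 10666 and 7936, and 10 regulators in place of 16 in PC3 against DU145.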
